A study of Homo sapiens with 6 samples.

Results

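The genes of neutrophil primary granule proteins were examined in OCI-AML3 cells, a human acute myeloid leukaemia line with a mutated NPM1 gene. The members were chosen by name as 10 genes that mark the promyelocyte stage, namely MPO, ELANE, PRTN3, AZU1, CTSG, PRSS57, LYZ, BPI, CFD and SRGN. Of these, 8 had a probe set naming that gene alone, which gave 12 probe sets of the 54613 tested, or 8 of 19775 genes. The 3 probe sets for BPI also name LOC149684, and none was found here for PRSS57, so these 2 genes were not analysed here. RNA was taken from 3 samples given 1 μM Vorinostat for 24 h and from 3 samples given its solvent DMSO for the same time. Vorinostat inhibits histone deacetylases. All samples came from this 1 cell line, and each was read on an Affymetrix HG-U133 Plus 2.0 array as a log2 value per probe set. Replicates are numbered 1 to 3 within each group. As the sources used here do not name separate cultures, the p-values cover sample-to-sample spread that may be technical.

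Primary, or azurophil, granules form at the promyelocyte stage, when many of the genes of their contents are switched on. They hold myeloperoxidase, a family of serine proteases, lysozyme and other antimicrobial proteins, packed on the proteoglycan serglycin. In myeloid leukaemia some of these genes serve as markers of how far granulocytic maturation has gone.

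Of the 8 measured genes 4 have a window of 250 bases upstream of the gene start in RefSeq (GRCh38.p14), printed 5′ to 3′ on the strand of the gene. They are shown because AZU1, PRTN3, ELANE and CFD lie next to each other in this order on chromosome 19, and because CTSG is among the members whose values are followed most closely below. Capitals mark matches on either strand to the short cores bound by PU.1 (GAGGAA), MYB (AACNG), RUNX (TGTGGT) and C/EBP factors (TTGCNNAA), none of which overlap each other here.
PRTN3, chr19:840749-840998, plus strand: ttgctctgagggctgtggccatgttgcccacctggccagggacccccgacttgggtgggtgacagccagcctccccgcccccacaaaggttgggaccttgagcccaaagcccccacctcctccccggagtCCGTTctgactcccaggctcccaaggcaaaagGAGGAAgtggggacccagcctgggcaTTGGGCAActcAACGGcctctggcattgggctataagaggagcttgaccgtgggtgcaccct
AZU1, chr19:827587-827836, plus strand: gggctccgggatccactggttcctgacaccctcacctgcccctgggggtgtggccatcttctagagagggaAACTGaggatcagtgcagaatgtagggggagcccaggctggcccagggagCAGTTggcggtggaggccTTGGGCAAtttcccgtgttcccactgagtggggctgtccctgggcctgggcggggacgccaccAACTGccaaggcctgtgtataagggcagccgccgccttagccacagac
CTSG, chr14:24576251-24576500, minus strand: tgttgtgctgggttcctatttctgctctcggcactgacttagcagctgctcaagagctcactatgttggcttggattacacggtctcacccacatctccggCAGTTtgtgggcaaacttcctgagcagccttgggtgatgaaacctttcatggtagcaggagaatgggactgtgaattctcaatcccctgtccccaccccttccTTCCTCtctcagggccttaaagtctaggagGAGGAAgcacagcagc
CFD, chr19:859414-859663, plus strand: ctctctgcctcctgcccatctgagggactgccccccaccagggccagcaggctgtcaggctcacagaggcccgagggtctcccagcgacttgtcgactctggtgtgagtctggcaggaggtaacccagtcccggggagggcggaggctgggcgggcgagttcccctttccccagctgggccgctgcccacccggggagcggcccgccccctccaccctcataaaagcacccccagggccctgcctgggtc
The window of PRTN3 held a PU.1 core starting 88 bases before the gene, a C/EBP core at 62 bases and MYB cores at 120 and 51 bases. AZU1 held a C/EBP core at 111 bases and MYB cores at 179, 129 and 48 bases, with no PU.1 core. CTSG held PU.1 cores at 46 and 16 bases and an MYB core at 149 bases, and CFD held none of the 4 cores. Of 35116 promoter windows of this length, 23.6% held the PU.1 core, 9.05% the C/EBP core, 70.6% the MYB core and 11% the RUNX core. These matches describe the letters only.

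Signal differed strongly between arrays of the same group. The replicate 1 arrays held 8158 and 8645 probe sets above a log2 value of 3, a level used here only for description, and the other 4 held between 2761 and 3731. The mean of 10 housekeeping genes was 6.60 on DMSO replicate 2 and 4.89 on Vorinostat replicate 2. Their median difference, Vorinostat minus DMSO, was 0.04, -1.74 and -0.28 in numbers 1, 2 and 3. Bright probe sets, here the 2731 with a mean over the 6 arrays above the 95th percentile, had median differences of -0.09, -1.21 and 0.24. These values stand beside every difference below, and their part in it was not tested. Differences within numbers 2 and 3 follow the labels, as these 2 numbers were not told apart by correlation between arrays.

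At baseline the granule genes fell into those with bright signal on every array and those without. CTSG, CFD, 1 of the 2 LYZ probe sets and 2 of the 3 SRGN probe sets lay above the 95th percentile of their own array on all 6 arrays. ELANE did so on 5 arrays, all but Vorinostat replicate 2. The position of a probe set on its array depends on its own probes as well as on RNA, so levels were not compared between genes.
MPO, the peroxidase that makes hypochlorous acid and the defining enzyme of these granules, was dim by both of its probe sets. The probe set 203949_at read 1.91, 2.51 and 2.76 with DMSO, and 203948_s_at read 1.33, 1.58 and 1.97. Neither passed a log2 value of 3 on any array, nor the 95th percentile of any. Of the 7 measured promyelocyte markers, CTSG and MS4A3, a membrane protein of the same stage that is not a member, lay above the 95th percentile on all 6 arrays and ELANE on 5. AZU1 and CST7, an inhibitor of cysteine proteases, did so on 1 array each, and MPO and PRTN3 on 0. The promyelocyte label was thus met by some of its markers and not by others.

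**Figure D1:**
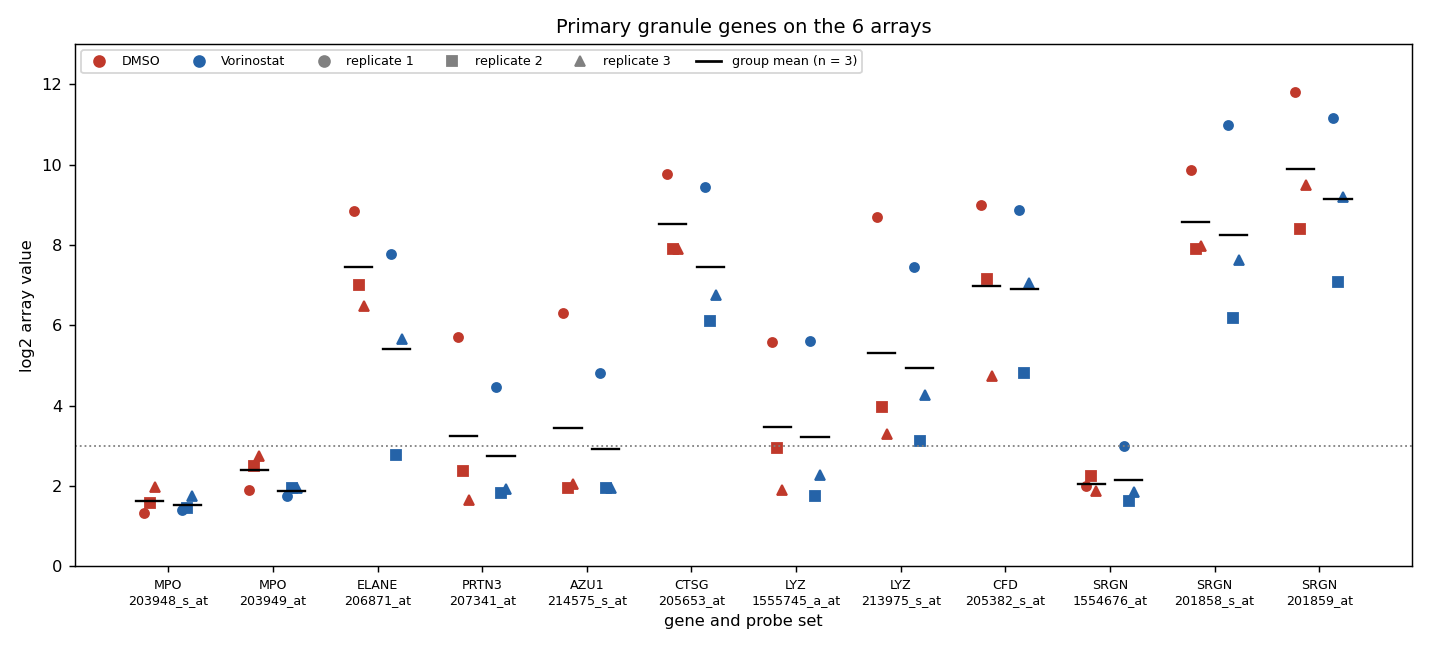
Log2 array values of the 12 probe sets, with 1 point per array, DMSO in red, Vorinostat in blue, and the marker shape giving the replicate number. Black bars are group means of 3 arrays and the dotted line is a log2 value of 3. The circles of replicate 1 stand highest for most genes, while both MPO probe sets stay under the line.

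Vorinostat was compared with DMSO to ask whether blocking deacetylases changed expression of these genes. The serine proteases ELANE and CTSG, 1 of the MPO probe sets and 1 of the SRGN probe sets had lower values with Vorinostat in each replicate number, and no probe set was higher in each. Of the 12 probe sets 11 had a negative log2 fold change, as did 54.0% of all probe sets and 74.0% of bright ones. Their median was -0.44, against -0.02 over all probe sets and -0.34 over bright ones. All 10 housekeeping genes were negative too, with a median of -0.59. The members' median pools bright and dim probe sets, so these 2 medians are not of like sets. By number, the 6 bright member probe sets had median differences of -0.48, -1.75 and -0.32. Housekeeping genes had 0.04, -1.74 and -0.28. Whether the members differed from them was not tested. The study called a gene changed at more than 2-fold together with p below 0.05, and none of the 12 met this in the fit of limma without a block. That threshold was passed downwards by 0.0275% of all probe sets and upwards by 0.0165%. No member had an unadjusted p under 0.05, against 0.998% of all probe sets, and every adjusted p from limma was 1. The groups overlapped for each of the 12, as they did for most probe sets, with 5.27% of all probe sets apart.
Lower values in each replicate number were found for 4 of 12 members and for 14.7% of all probe sets. Among bright probe sets the share was 19.8%, and 3 of the 6 bright member probe sets had it. The same 3, of ELANE, CTSG and SRGN, lay below the median of bright probe sets in every number, as did 14.6% of bright probe sets. For SRGN 201859_at the lower values in numbers 2 and 3 depend on how the arrays of these numbers are paired. After quantile normalisation, and also by percentile within each array, the 4 became 2, namely ELANE and MPO 203949_at, and SRGN 201858_s_at was higher in each.

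ELANE, the neutrophil elastase that degrades elastin and bacterial proteins, had the most negative value of the members. It read 8.84, 7.0 and 6.49 in DMSO replicates 1, 2 and 3, and 7.77, 2.77 and 5.66 in Vorinostat replicates 1, 2 and 3. Vorinostat replicate 2 stood far under the other arrays, and the groups overlapped because Vorinostat replicate 1 lay above DMSO replicates 2 and 3. DMSO arrays averaged 7.44 ± 1.23 (SD, n = 3), and Vorinostat arrays 5.40 ± 2.51 (SD, n = 3). The log2 fold change was -2.04 with a 95% interval from limma of -5.54 to 1.45 (unadjusted p = 0.197, adjusted p = 1). Within numbers 1, 2 and 3 the difference was -1.07, -4.23 and -0.83. Each lay below the median of bright probe sets and below that of housekeeping genes in the same number. The size depended on which array was left out. The log2 fold change was -0.73 without Vorinostat replicate 2, and without Vorinostat replicate 1 it was -3.23 and passed the threshold of the study (unadjusted p = 0.0425 from limma). The latter fit keeps DMSO replicate 1 in 1 group only. It called 141 of all probe sets lower, against 15 in the main fit. With the replicate number as a block the interval was -4.14 to 0.05 and the threshold was missed (unadjusted p = 0.0538 from limma). After quantile normalisation the log2 fold change was -1.85. It missed the threshold without the block (unadjusted p = 0.0515 from limma) and passed with the block (unadjusted p = 0.0491 from limma).
CTSG, the chymotrypsin-like cathepsin G, was bright on all arrays. Its values were 9.76, 7.90 and 7.90 with DMSO and 9.45, 6.11 and 6.76 with Vorinostat. The Vorinostat arrays of numbers 2 and 3 lay under every DMSO array, while that of number 1 lay between them. The log2 fold change was -1.08 (95% interval -3.66 to 1.51, limma, unadjusted p = 0.34, adjusted p = 1). By number the differences were -0.31, -1.79 and -1.14. With the replicate number as a block the interval was -1.93 to -0.23 and the unadjusted p from limma 0.0242, which passed the threshold of the study, while the adjusted p was 0.887. It was the 1 member of 12 called by that fit, which called 0.32% of all probe sets and 4.36% of bright ones lower, and 0.0952% of all probe sets higher. After quantile normalisation with the block its log2 fold change was -0.34 and the call was lost, with a difference of 0.15 in number 2. Without Vorinostat replicate 2 the log2 fold change was -0.41, and without DMSO replicate 1 it was -0.46. It passed the threshold of the study without a block when Vorinostat replicate 1 was left out (-2.08, unadjusted p = 0.0329 from limma) and when both replicate 1 arrays were (-1.46, unadjusted p = 0.0034 from limma). These 2 fits called 141 and 205 of all probe sets lower, against 15 in the main fit.

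**Figure D2:**
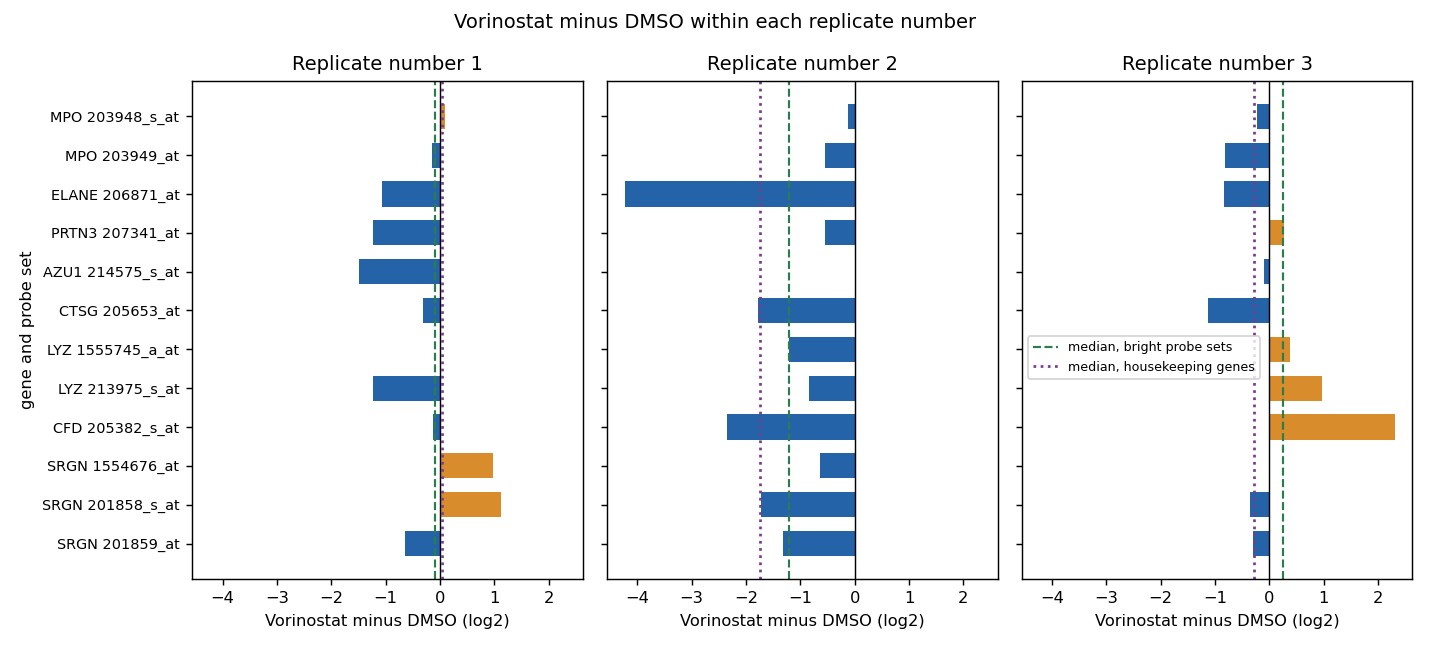
Vorinostat minus DMSO on the log2 scale within each replicate number, with 1 bar per probe set, blue for lower and orange for higher. Dashed and dotted lines are the medians of bright probe sets and of housekeeping genes, which in number 2 stand at -1.21 and -1.74. The bar of ELANE in number 2 reaches -4.23, and the bars of ELANE and CTSG point down in every panel.

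The other members of the protease family on chromosome 19 were near the bottom of the scale outside replicate number 1. PRTN3, proteinase 3 and a target of autoantibodies in vasculitis, read 5.70, 2.37 and 1.66 with DMSO and 4.47, 1.82 and 1.93 with Vorinostat. AZU1, azurocidin, is a relative of the proteases that has lost catalytic activity. It read 6.31, 1.94 and 2.06 with DMSO and 4.82, 1.96 and 1.95 with Vorinostat. For both genes only the replicate 1 arrays exceeded a log2 value of 3, and there the Vorinostat array was lower by a difference of -1.23 for PRTN3 and -1.49 for AZU1. In numbers 2 and 3 the differences were -0.55 and 0.27 for PRTN3 and 0.02 and -0.10 for AZU1, at values under 3 on every array. The log2 fold changes were -0.51 (95% interval -3.79 to 2.78) and -0.52 (95% interval -4.25 to 3.21) from limma. These intervals leave room for more than 2-fold in either direction.
CFD, the complement protease factor D and their neighbour, did not move in 1 direction. It read 9.0, 7.15 and 4.74 with DMSO and 8.87, 4.81 and 7.05 with Vorinostat. The differences of -0.13, -2.35 and 2.30 changed sign between numbers 2 and 3. These 2 numbers were not told apart, and DMSO replicate 2 read close to Vorinostat replicate 3, and DMSO replicate 3 to Vorinostat replicate 2. The opposite signs thus depend on how these arrays are paired. Group means of 6.97 ± 2.14 (SD, n = 3) and 6.91 ± 2.03 (SD, n = 3) differed by less than the spread between arrays. Whether the response of CFD differed from that of ELANE was not tested.

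For MPO the probe set 203949_at read 1.76, 1.96 and 1.94 with Vorinostat, each lower than the DMSO array of the same number. The groups overlapped, since Vorinostat replicates 2 and 3 lay above DMSO replicate 1. Its log2 fold change was -0.51 (95% interval -1.10 to 0.09), with differences of -0.15, -0.55 and -0.82. With the block the unadjusted p from limma was 0.0341 (adjusted p = 0.887), under 2-fold. The other probe set, 203948_s_at, had a log2 fold change of -0.09 (95% interval -0.59 to 0.42). Both read under 3 throughout, and the sign of both turned when the housekeeping mean was set equal on each array.
LYZ, the lysozyme that cuts bacterial cell walls, is read by 2 probe sets. The brighter, 213975_s_at, read 8.69, 3.97 and 3.29 with DMSO and 7.45, 3.13 and 4.26 with Vorinostat. It was lower in numbers 1 and 2 and higher in number 3, with differences of -1.23, -0.84 and 0.98. The other probe set, 1555745_a_at, had the same sign in numbers 2 and 3 and read 0.02 in number 1. Their log2 fold changes were -0.37 (95% interval -4.98 to 4.25) and -0.27 (95% interval -3.80 to 3.27).
SRGN, the serglycin core protein whose sugar chains hold the proteases in the granule, is read by 3 probe sets that disagreed. The brightest, 201859_at, read 11.81, 8.41 and 9.48 with DMSO and 11.16, 7.08 and 9.18 with Vorinostat, lower by differences of -0.65, -1.32 and -0.30. Its Vorinostat replicate 3 lay above DMSO replicate 2. Its lower values in numbers 2 and 3, and its fit with the block, thus depend on how these arrays are paired. For 201858_s_at the differences were 1.12, -1.72 and -0.35, so the 2 bright probe sets had opposite signs in number 1. The third, 1554676_at, read under 3 on all arrays. The log2 fold change of 201859_at was -0.76 (95% interval -4.10 to 2.59). With the block its unadjusted p from limma was 0.028 (adjusted p = 0.887), under 2-fold, and after quantile normalisation its log2 fold change was 0.03.
Together with CTSG, 3 of 12 member probe sets had an unadjusted p under 0.05 and a negative sign with the block, against 2.09% of all probe sets and 9.23% of bright ones. The 3 probe sets nearest to SRGN 201859_at in pattern, by the root mean square difference of centred values over the 6 arrays among 2329 bright candidates, were those of SEC11A (0.22), RPS7 (0.26) and ZFAND5 (0.27). All of these were highest on the replicate 1 arrays and lowest on Vorinostat replicate 2.

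**Figure D3:**
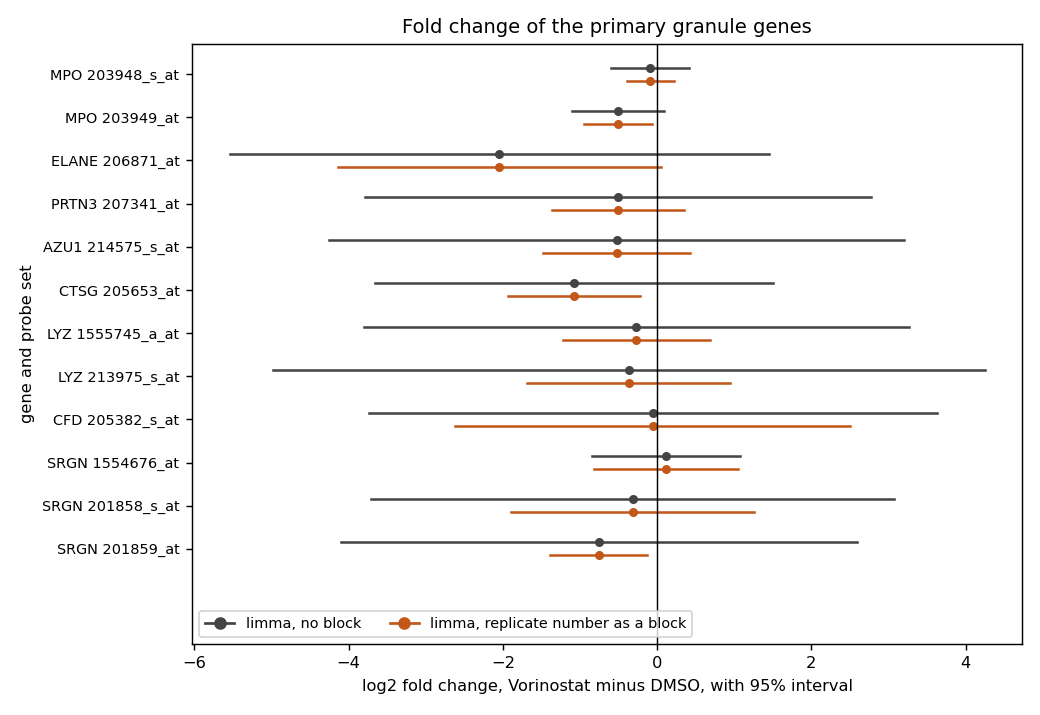
Log2 fold change of each probe set with its 95% interval from limma, in dark grey without a block and in orange with the replicate number as a block. All 12 dark grey intervals cross 0, and the orange intervals of CTSG, MPO 203949_at and SRGN 201859_at lie below it.

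Lists of related genes showed no call in the fit of limma without a block, against 0.0961% of genes in either direction by 1 probe set per gene. Of the other azurophil granule contents 19 genes were measured, 16 of them with a negative log2 fold change and a median of -0.10, against 53.1% negative and a median of -0.02 over all 19775 genes. The counts by sign of the lists below are to be read against that share. Of the 19 genes 12 lay above the 95th percentile on no array. Some of the negative values were near 0, such as ARSB (-0.006) and CLC (-0.012). The list also holds PRG2 and CLC, which are counted among the eosinophil, basophil and mast cell markers too. MS4A3 read 9.45, 7.28 and 8.05 with DMSO and 8.57, 4.60 and 7.45 with Vorinostat. Its differences of -0.88, -2.68 and -0.61 were all negative. Vorinostat replicate 3 lay above DMSO replicate 2, so these signs and the fit with the block depend on how numbers 2 and 3 are paired. With the block MS4A3 passed the threshold of the study downwards, with a log2 fold change of -1.39 (unadjusted p = 0.0373, adjusted p = 0.887 from limma). So did 0.632% of genes and 4.36% of bright probe sets, of which it is 1. RNASE2, a ribonuclease better known from eosinophil granules, was bright on every array with differences of 0.40, -1.72 and 0.47. DEFA4, a defensin of these granules, read under 3 throughout. Of the 7 measured promyelocyte markers, which include MPO, ELANE, PRTN3, AZU1 and CTSG, 5 were lower in each number against 13.7% of all genes. For MS4A3 and CST7 among them this depends on how numbers 2 and 3 are paired.
Of 26 genes for processing and sorting of granule proteins, 14 were negative and 12 positive. CTSC, the peptidase that activates the serine proteases by trimming them, had differences of 0.93, 0.37 and 0.11, a sign opposite to that of ELANE and CTSG in each number. For CTSC this too depends on how numbers 2 and 3 are paired, as its Vorinostat replicate 2 lay under DMSO replicate 3. Its log2 fold change was 0.47 (standard error 1.43, adjusted p = 1 from limma). CALR, a chaperone for myeloperoxidase, had -0.92, -1.84 and -0.05. AP3B1, a subunit of the adaptor that sorts proteins to granules, had 0.48, 1.00 and 0.38.
Of 14 protease inhibitors 9 were negative. SERPINB1, the cytosolic inhibitor of elastase, cathepsin G and proteinase 3, had -0.38 as its log2 fold change (standard error 1.58). SERPINA1, the antitrypsin gene, was the 1 gene of these lists with an unadjusted p under 0.05 from limma (0.0333, adjusted p = 1), against 0.389% of genes lower, with a log2 fold change of -0.33 at values between 1.58 and 2.17.
Secondary and tertiary granule genes, which follow later in maturation, had 14 of 22 positive, with a median of 0.06. TCN1, a vitamin B12-binding protein, differed by 3.85, 0.93 and 2.39 and with the block passed the threshold upwards (log2 fold change 2.39, unadjusted p = 0.0145, adjusted p = 0.887 from limma), as 0.197% of genes did. LTF, the lactoferrin gene that defines these granules, read between 1.54 and 1.92. Whether primary and later granule genes differed in response was not tested.
Of 28 regulators of the granule genes 17 were negative, with a median of -0.12. CEBPA, the factor that starts granulocytic differentiation, had differences of 0.59, -1.84 and 1.77, and MYB, which drives progenitor genes, 0.90, -2.06 and -0.54. IRF8, a factor of the monocyte lineage, had -0.30, -1.56 and -0.18, and CBFB, the partner of RUNX1, -0.76, -2.22 and -0.17. The bright regulators CEBPB, CEBPD, RXRA, MYC and MAX each had differences of both signs over the replicate numbers. CEBPE, needed for the later granules, read between 1.49 and 1.94. NPM1, which was bright, passed the threshold downwards with the block (log2 fold change -1.04, unadjusted p = 0.0297, adjusted p = 0.887 from limma). So did 0.632% of genes and 4.36% of bright probe sets.
None of the 5 measured monocyte, 6 eosinophil, basophil and mast cell, or 6 T and NK cell markers lay above the 95th percentile on any array. The same held for the 3 measured blast and progenitor markers, CD34, KIT and FLT3, and for 2 erythroid markers. CD14 read between 1.5 and 2.19, while S100A8, a calcium-binding protein of monocytes and neutrophils, read 5.58 and 4.36 on the replicate 1 arrays of DMSO and Vorinostat and under 3 on the others. Of 3 B cell markers CD79A exceeded that percentile on 1 array, Vorinostat replicate 2, where it read 4.09. Of 4 megakaryocyte markers ITGA2B did so on 1 array, DMSO replicate 3, where it read 3.25. In RNA of a whole culture, fewer cells with a transcript and less transcript per cell cannot be told apart.

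**Figure D4:**
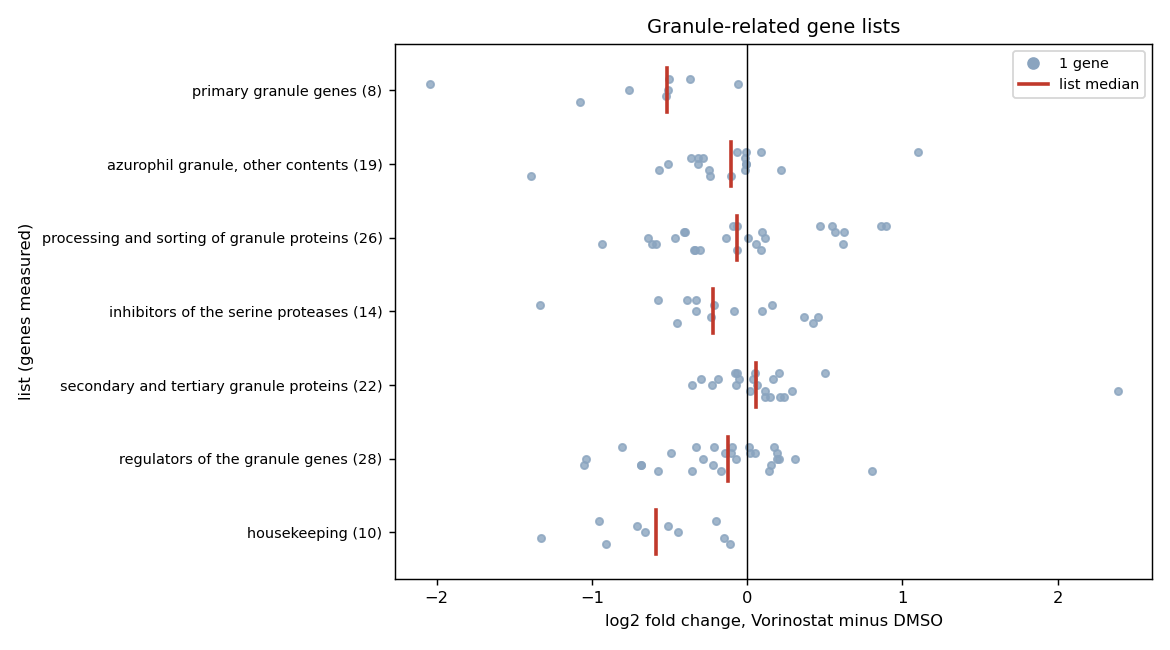
Log2 fold change, Vorinostat minus DMSO, of each gene in the granule-related lists and the housekeeping list, with 1 point per gene read by its brightest probe set and red bars for medians. The medians are -0.51 for the 8 primary granule genes, 0.06 for secondary and tertiary granule genes and -0.59 for housekeeping genes.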

How the data were processed

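The deposited table gives log2 intensities per probe set, with 1 column for each of the 6 arrays. Methods of the study describe import into Partek Genomics Suite, while MAS5 and RMA stand in the submitters' processing notes without versions or roles. That the authors' values are log2 was inferred from their range. Upper percentiles differ between arrays, so no quantile normalisation across arrays had been applied.
Of 54675 probe sets 62 controls were left out. Of the 54613 tested 41091 name 1 gene, 1801 several and 11721 are unnamed here. The groups were fitted in R 4.3.3 with limma 3.58.1, without normalisation, filter or block, and p-values were adjusted by Benjamini-Hochberg across all probe sets, after the code was tested on simulated data. Each gene of a list was read by its brightest probe set, by the mean of the 6 arrays. The test named in the methods, run on the same values, was an alternative. With 3 arrays a group, the smallest two-sided p of an exact permutation test is 0.1, so none was used. The number of arrays limits the precision. Members and lists were chosen with earlier results of these data known. The text names all members, genes of each list taken from the 4 with the smallest unadjusted p in each direction, bright regulators, and the 3 probe sets nearest in pattern to the member probe set with the highest DMSO mean. CTSC, SERPINB1, RNASE2, LTF and CST7 were named for their roles after their values were seen.
Deviations of arrays from their group mean correlated over probe sets by 0.874, 0.599 and 0.672 for the numbers 1, 2 and 3. All lay above 0.1, so samples of the same number were treated as pairs in the differences within numbers and in the fits with the block. The main fit did not use pairs. Numbers 2 and 3 were not told apart, as DMSO replicate 3 and Vorinostat replicate 2 correlated by 0.695.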

Additional observations from a re-analysis of the deposited data

How the results depend on the processing

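Without the block 0 member probe sets passed the threshold of the study. With the replicate number as a block 1 was lower (CTSG), and with quantile normalisation together with the block 1 (ELANE). The block changed no other member's call. Leaving out single arrays or both arrays of a number gave 0 to 2. Over all probe sets the counts were 9 higher and 15 lower, against 52 and 175 with the block, 46 and 71 after quantile normalisation, 133 and 149 after quantile normalisation with the block, 3 and 2 by the methods' t-test and 2 and 1 with the housekeeping mean set equal on each array, an alternative chosen after seeing the data. Leaving out arrays gave 5 to 99 higher and 0 to 205 lower. For the granule-related lists, 0 and 0 without the block, the counts were 1 higher and 2 lower with the block, 1 higher after quantile normalisation, 2 higher and 1 lower with both, 1 higher with the housekeeping mean set equal, and 0 to 1 higher and 0 to 2 lower with arrays left out. Lower in each replicate number were 4 members, 2 after quantile normalisation and 2 by percentile within arrays, where 1 was higher in each case. The median log2 fold change of the members, -0.44, ranged from -1.47 to 0.26 with arrays left out. It was 0.16 with the housekeeping mean set equal, which moved the median of all probe sets to 0.58 and that of bright ones to 0.26. The members then lay -0.42 from the median of all probe sets, but nearer to that of bright ones.
ELANE and CTSG kept a negative sign under every alternative run, with ranges of -3.23 to -0.73 and -2.08 to -0.41 with arrays left out. ELANE passed the threshold without Vorinostat replicate 1, and CTSG without it and without both replicate 1 arrays. With the housekeeping mean set equal the log2 fold change turned to 0.51 and 0.093 for MPO 203948_s_at and 203949_at, 0.093 for PRTN3, 0.075 for AZU1, 0.33 and 0.23 for LYZ 1555745_a_at and 213975_s_at, 0.54 for CFD and 0.28 for SRGN 201858_s_at. After quantile normalisation, with and without the block, it turned to 0.26 for CFD and to -0.12, 0.44 and 0.030 for SRGN 1554676_at, 201858_s_at and 201859_at. With arrays left out it ranged from -0.24 to 0.085 for MPO 203948_s_at, -1.37 to 0.72 for PRTN3, -1.48 to 0.91 for AZU1, -1.47 to 0.79 and -1.62 to 1.32 for LYZ 1555745_a_at and 213975_s_at, -1.24 to 1.09 for CFD, and -0.32 to 0.49, -1.68 to 0.73 and -1.77 to 0.27 for SRGN 1554676_at, 201858_s_at and 201859_at. The fits that leave out 1 replicate 1 array keep the other in 1 group only. The causes were not tested. MPO, and outside number 1 AZU1 and PRTN3, read under a log2 value of 3, and whether these values lie above background was not tested.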
